A study of Mus musculus with 2 samples.

Results

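Cells make cholesterol and fatty acids from acetyl-CoA, and the genes of both pathways are among the classic targets of the sterol regulatory element-binding proteins (SREBPs). The SREBPs are membrane-bound transcription factors that Scap escorts from the endoplasmic reticulum to the Golgi for cleavage when sterols are low, while the Insig proteins hold the complex back when sterols are high. Growing cells such as myoblasts use the products for new membranes, and the mevalonate branch also feeds the prenylation of proteins and the synthesis of dolichol and ubiquinone. The expression of 30 genes of these pathways was compared here between WT and Gne KO C2C12 myoblasts. They were taken by gene symbol from a list of the enzymes of sterol synthesis, the SREBPs with their escort and retention proteins, a sterol carrier, a sterol exporter and the main enzymes of fatty acid synthesis. All 30 symbols were found among the 21829 genes measured.

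C2C12 is an immortalised mouse myoblast line. The KO line carried a CRISPR-Cas9 indel in an early coding exon of Gne, which encodes the enzyme that starts sialic acid synthesis. Both lines were grown in DMEM with fetal bovine serum and gentamicin, and KO cells were isolated as single clones, so that an effect of Gne and a difference between clones cannot be told apart. There was 1 RNA sequencing library per line, no difference given here has a replicate check, and no p-value was computed. The deposited values carry no unit, and levels were taken as FPKM. These are fragment counts scaled by transcript length and library depth, so that different genes can be compared. Where 2 levels are given for a gene, the first is that of the WT library and the second that of the library labelled KO, and folds are KO over WT. Gne itself was at 6.67 and 7.34 FPKM, so its RNA does not show which library carries the indel. The library totals were 568410 and 574144 FPKM. Of 9 muscle markers on a fixed list, 5 had a mean of at least 1 FPKM, and 4 of these were more than 2-fold lower in the library labelled KO, while Myf5 was more than 2-fold higher, at 9.14 and 20.3 FPKM. Their list summed to 199 and 25.8 FPKM, with Myod1 listed at 0 in the latter and Pax7 at 0 in both. The adipocyte list, which bears on lipid synthesis, summed to 16.5 and 40.6 FPKM, and its defining genes Adipoq, Plin1 and Cidec were listed at 0 in both libraries. The fibroblast list of 7 genes, 2 of them past the filter, summed to 20.7 and 288 FPKM. Most of the latter came from the collagen gene Col1a1, at 9.66 and 273 FPKM. Pdgfra, the other gene past the filter, was at 10.8 and 12.3 FPKM. Below the filter, Dcn was at 0.272 and 1.68 FPKM and Dpt at 0.041 and 0.493 FPKM. Lum, Thy1 and Tcf21 were listed at 0 in both libraries. The part of these marker shifts in the differences below was not tested.

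Promoter sequence is shown first, because SREBPs act there together with NF-Y, which binds CCAAT boxes, and with Sp1, which binds GC boxes. RefSeq promoters (GRCm38.p6, from 250 bases before to 50 bases after each start) were matched by symbol for 24 of the 30 genes. Fdps, Fdft1, Sqle, Stard4, Scd1 and Scd2 had no promoter in the table and were not searched. Genes with several annotated starts had several windows. The 250 bases before the start are printed 5′ to 3′ on the strand of the gene. Capitals mark CCAAT on either strand, so that ATTGG is its reverse complement, and the sterol response element (SRE) spelled TCACNCCAC. The sequence of Hmgcs1, the HMG-CoA synthase gene, is shown because it was the only one with this SRE, that of Mvk because it held the most CCAAT boxes, that of Fasn for the fatty acid branch, and that of Abca1 as the sterol exporter without a CCAAT box. They lie at chr13:119690101-119690350 on the plus strand (Hmgcs1), chr5:114444019-114444268 on the plus strand (Mvk), chr11:120824548-120824797 on the minus strand (Fasn) and chr4:53159896-53160145 on the minus strand (Abca1).

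Hmgcs1: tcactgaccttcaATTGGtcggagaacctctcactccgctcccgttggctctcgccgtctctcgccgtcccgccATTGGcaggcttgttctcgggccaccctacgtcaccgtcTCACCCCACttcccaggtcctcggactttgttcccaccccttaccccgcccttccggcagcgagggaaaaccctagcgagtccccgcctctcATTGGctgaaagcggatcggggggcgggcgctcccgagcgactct
Mvk: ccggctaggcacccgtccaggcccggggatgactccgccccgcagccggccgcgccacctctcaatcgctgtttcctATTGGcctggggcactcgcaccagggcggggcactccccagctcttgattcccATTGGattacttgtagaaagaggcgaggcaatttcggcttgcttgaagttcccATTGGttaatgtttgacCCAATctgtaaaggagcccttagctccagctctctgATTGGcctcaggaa
Fasn: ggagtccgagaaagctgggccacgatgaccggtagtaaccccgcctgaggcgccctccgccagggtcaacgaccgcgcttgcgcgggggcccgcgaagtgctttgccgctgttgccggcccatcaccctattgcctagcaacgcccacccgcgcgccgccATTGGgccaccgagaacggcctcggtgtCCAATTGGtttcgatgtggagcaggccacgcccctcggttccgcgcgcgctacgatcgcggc
Abca1: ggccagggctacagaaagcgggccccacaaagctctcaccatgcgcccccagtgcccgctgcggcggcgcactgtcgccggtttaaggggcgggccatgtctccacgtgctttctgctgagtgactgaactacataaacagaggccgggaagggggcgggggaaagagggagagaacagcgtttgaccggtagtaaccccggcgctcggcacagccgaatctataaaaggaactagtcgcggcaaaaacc

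In Hmgcs1 the SRE began 137 bases before the start, between a CCAAT box at 176 and another at 45 bases before it. Mvk held 5 CCAAT boxes, the farthest 173 and the nearest 14 bases before the start. The printed Fasn stretch held 3, of which the pair on opposite strands at 62 and 59 bases overlap. A CCAAT box was found in the promoters of 20 of the 24 genes, 83.3%. The share was 43.5% among the 8379 genes with a promoter in the table and a mean of at least 1 FPKM. Among all 27025 genes in the table it was 41.1%. The 4 of the 24 without a CCAAT box were Acat2, Scap, Abca1 and Acaca. Counted by window, because Dhcr7, Insig2, Srebf1, Scap and Pmvk have more than one, a CCAAT box was found in 21 of 32 windows, against 37.4% of all windows. The GC box GGGCGG was found in 21 of the 24 genes, 87.5%, against 71.9% of the 8379 genes. The SRE was found in 1 of the 24, 4.17%, against 1.35% of them. A second spelling, TCACNCGAC, was found in 0 of the 24, against 0.704% of the 8379 genes. All motifs were searched on both strands, and a missing match says only that these letters are not in this window.

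**Figure D1:**
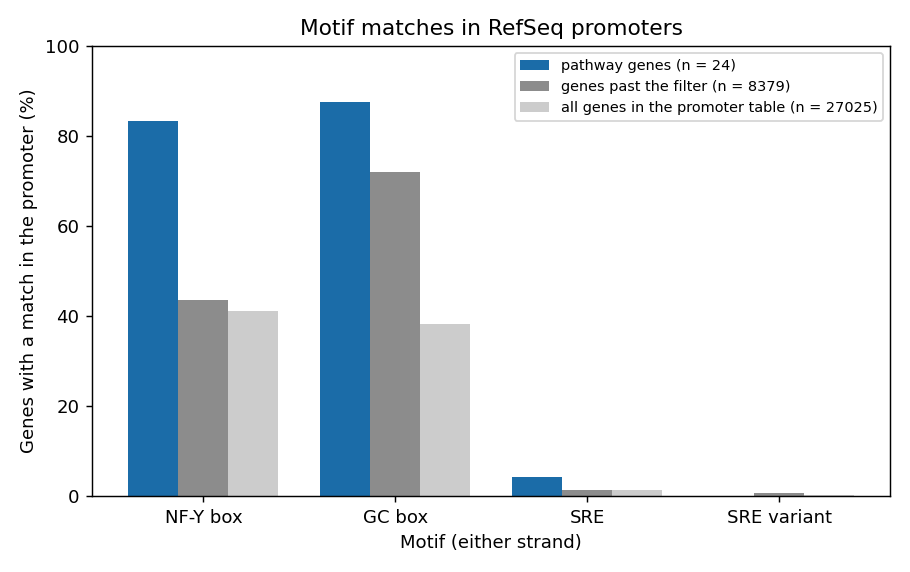
Share of genes (%) with each motif in a RefSeq promoter of 300 bases, for the 24 pathway genes with a promoter, the 8379 genes with a promoter that passed the expression filter and all 27025 genes of the table. The bar of the pathway genes stands at 83.3% for the NF-Y box (CCAAT) and at 4.17% for the SRE.

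With the exception of Abca1, the pathway was expressed at high levels in both lines. Abca1, the pump that loads cellular cholesterol onto apolipoprotein A-I, was at 0.013 and 0.096 FPKM. With the most frequent product of low value and transcript length taken as 1 fragment, as described below, these stand for about 4 and 23 fragments. Abca1 did not reach the mean of 1 FPKM asked of a gene, which left 29 of the 30. All 29 lay above the median level of the 10542 genes past that filter, 22 were in the top 25% and 13 in the top 10%. In the WT library the highest were Scd2 at 345 FPKM, Fdps at 305 FPKM and Hmgcs1 at 228 FPKM, and the lowest was Hsd17b7 at 18.2 FPKM. By the same estimate, each of the 29 rested on at least 831 fragments in either library, the value of Tm7sf2 in the library labelled KO.

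**Figure D2:**
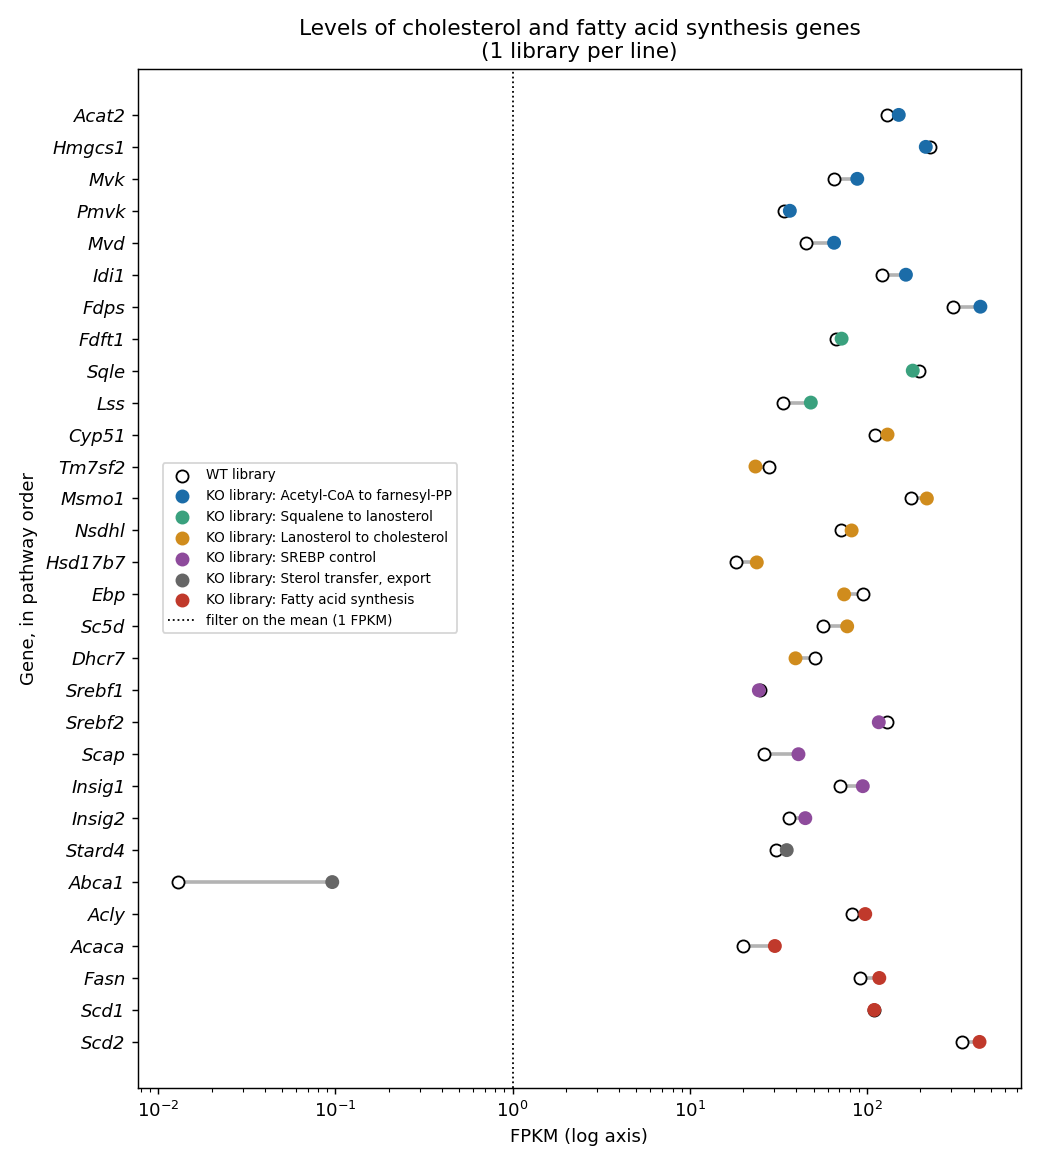
Level of each of the 30 genes (FPKM, log axis) in the WT library (open circles) and the library labelled KO (filled circles, coloured by pathway step), in pathway order from top to bottom. All genes but Abca1 lie above 18 FPKM in both libraries, and the pairs of points lie close together.

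The differences between the lines were small. On the log2((KO + 1)/(WT + 1)) scale, which understates the change of low genes, they ran from -0.35 for Dhcr7 to 0.62 for Scap. None of the 29 genes was more than 2-fold higher or lower, against 2.84% and 3.43% of the 10542 genes. More than 1.5-fold higher was 1 of 29, 3.45%, against 7.68% of all genes, and 0 were more than 1.5-fold lower, against 7.5%. This gene was Scap, while Acaca, at 0.57, fell just short of the threshold of 0.58. These shares were below those of all genes. The 29 genes all lay above the median level, however, and shares among genes of like level were not computed. In a set of 29 such shares amount to few genes, so they do not show that the pathway was steadier than other genes.

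The direction was less even. The value was higher in the library labelled KO for 22 of the 29 genes, 75.9%, against 50.7% of all genes, and lower for 7, 24.1%, against 49.3%. The median log2 fold change was 0.25 in the 29 and 0.0061 in all genes, and 0.0085 in the 4383 genes whose mean reached 20 FPKM. Of the 29, 16 lay above the upper quartile of all genes (0.23) and 3 below the lower quartile (-0.21), against 25% each. Summed over the 30 genes, the level was 2805 and 3277 FPKM. These counts describe 2 libraries, and the genes are co-regulated and are not replicates.

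**Figure D3:**
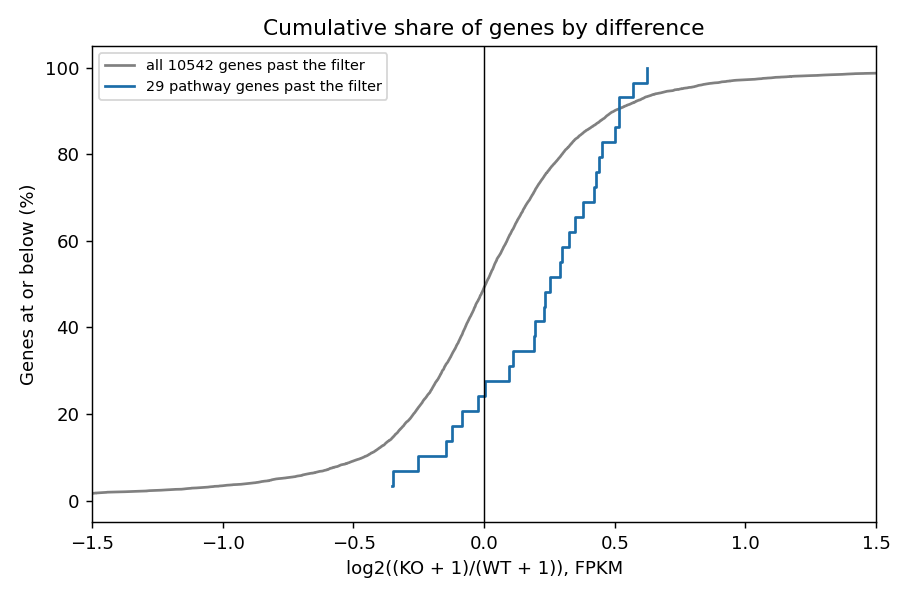
Cumulative share of genes (%) against log2((KO + 1)/(WT + 1)), for the 29 pathway genes past the filter (blue steps) and all 10542 genes (grey). The steps run to the right of the grey curve over most of their length, with a median of 0.25 against 0.0061, and end at 0.62.

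The mevalonate branch, from acetyl-CoA to farnesyl diphosphate, had a median of 0.42, with 6 of 7 enzymes higher in the library labelled KO. Fdps, which makes farnesyl diphosphate, was at 305 and 437.3 FPKM, 1.43 times the WT value. Mvd, the decarboxylase that yields isopentenyl diphosphate, was at 45.4 and 65.3 FPKM, a log2 fold change of 0.51. Idi1, which isomerises that product, was at 121 and 166 FPKM, a log2 fold change of 0.45. These genes and Mvk, mevalonate kinase, stood clear of the interquartile range of all genes. Mvk was at 65.6 and 88.3 FPKM, a log2 fold change of 0.42. Acat2, the thiolase that forms acetoacetyl-CoA, was at 129 and 151 FPKM, and Pmvk, the next kinase after Mvk, at 33.96 and 36.7 FPKM. Hmgcs1, whose promoter carries the SRE shown above, was the only enzyme of this branch with a lower value in the library labelled KO. It was at 228 and 215 FPKM, a log2 fold change of -0.08, well inside the interquartile range of all genes.

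The genes from squalene to lanosterol differed among themselves. Fdft1, squalene synthase, was at 67.3 and 72.0 FPKM, and Sqle, the squalene epoxidase that is a rate-limiting enzyme of the pathway, at 198 and 182 FPKM. Neither left the interquartile range of all genes. Lss, which closes the sterol ring, was at 33.8 and 48.3 FPKM, a log2 fold change of 0.50.

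From lanosterol to cholesterol, 5 of 8 enzymes stood higher and 3 lower in the library labelled KO, with a median of 0.21. The 3 lower genes were also the only ones of the whole set below the lower quartile. Ebp, the sterol isomerase, was at 95.0 and 74.4 FPKM, 0.783 times the WT value. Dhcr7, which reduces 7-dehydrocholesterol to cholesterol, was at 50.8 and 39.6 FPKM, 0.779 times the WT value. Tm7sf2, a sterol C14 reductase, was at 28.2 and 23.5 FPKM, a log2 fold change of -0.25. Lbr, which has the same activity and is named after its values were seen, was at 54.3 and 62.3 FPKM. The other 5 enzymes of this stretch stood higher. Cyp51, the lanosterol demethylase, was at 111 and 131 FPKM, and Msmo1, the C4 methyl oxidase, at 178 and 218 FPKM. Nsdhl, which acts on the product of Msmo1, was at 71.7 and 82.0 FPKM, and Hsd17b7, the ketoreductase that follows it, at 18.2 and 23.9 FPKM. Sc5d, the desaturase that acts just before Dhcr7, was at 56.8 and 77.4 FPKM, a log2 fold change of 0.44, opposite in sign to both Ebp and Dhcr7.

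The SREBP genes themselves were nearly level. Srebf2, which encodes the SREBP most concerned with sterol synthesis, was at 129 and 117 FPKM, a log2 fold change of -0.14. Srebf1, whose products favour fatty acid synthesis, was at 24.998 and 24.6 FPKM, a log2 fold change of -0.02. Both stayed in the interquartile range of all genes. The genes for the proteins that move or hold the SREBPs had higher RNA values in the library labelled KO. Scap was at 26.3 and 41.1 FPKM, 1.56 times the WT value and higher on this scale than 93.3% of all genes. Insig1, itself a sensitive SREBP target, was at 70.2 and 94.8 FPKM, a log2 fold change of 0.43. Insig2, the less sterol-responsive form, was at 36.3 and 44.9 FPKM, a log2 fold change of 0.30. Stard4, which carries sterols between membranes and is also an SREBP target, was at 30.7 and 35.3 FPKM, a log2 fold change of 0.19.

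All 5 genes of fatty acid synthesis were higher in the library labelled KO, with a median of 0.32. Acaca, acetyl-CoA carboxylase, which commits acetyl-CoA to fatty acids, was at 20.1 and 30.2 FPKM, 1.51 times the WT value. Fasn, fatty acid synthase, was at 92.0 and 118 FPKM, a log2 fold change of 0.35. Acly, which makes cytosolic acetyl-CoA from citrate, was at 82.2 and 97.9 FPKM, a log2 fold change of 0.25. These 3 consecutive enzymes thus lay above the upper quartile of all genes. The desaturases Scd1 and Scd2 lie beside each other on chromosome 19 and share sequence, so that reads may be split between them. Scd2 was at 345 and 432 FPKM, a log2 fold change of 0.32, whereas Scd1 was at 109.7 and 110.1 FPKM, a log2 fold change of 0.0049. The related Scd3 and Scd4 were below 1 FPKM in both libraries.

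Neighbouring genes were examined because a stretch of chromosome can differ as a whole between lines, as chromosome 8 does around Tecr below. Beside each gene, the median log2 fold change of genes past the filter within 5 Mb was taken from the GENCODE vM39 annotation (GRCm39). For the 29 genes this median ran from -0.38 to 0.44. For Sc5d on chromosome 9 it was 0.44, as large as the log2 fold change of the gene, and for Lss on chromosome 10 it was 0.40 beside 0.50. For Mvd on chromosome 8 it was 0.33 beside 0.51. Sqle and Srebf2, both on chromosome 15, had neighbours at -0.27 and -0.38, further below 0 than the genes themselves. After subtraction, 24 of the 29 genes were higher, against 50% of all genes, with a median of 0.18. More than 1.5-fold higher was 1 of 29, against 6.53% of all genes, and 0 were more than 1.5-fold lower, against 5.69%. The medians by step then came to 0.19 for the mevalonate branch, 0.15 from squalene to lanosterol, 0.031 from lanosterol to cholesterol, 0.24 for SREBP control and 0.38 for fatty acid synthesis. The value of Scap became 0.71, of Acaca 0.55, of Fdps 0.48, of Mvk 0.47 and of Insig1 0.47. These 5 highest values lay with genes whose neighbours were near 0. Ebp, Dhcr7 and Hmgcs1 stood at -0.37, -0.27 and -0.26. For Hmgcs1 the neighbour median, 0.18, rested on 10 genes, the fewest allowed.

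**Figure D4:**
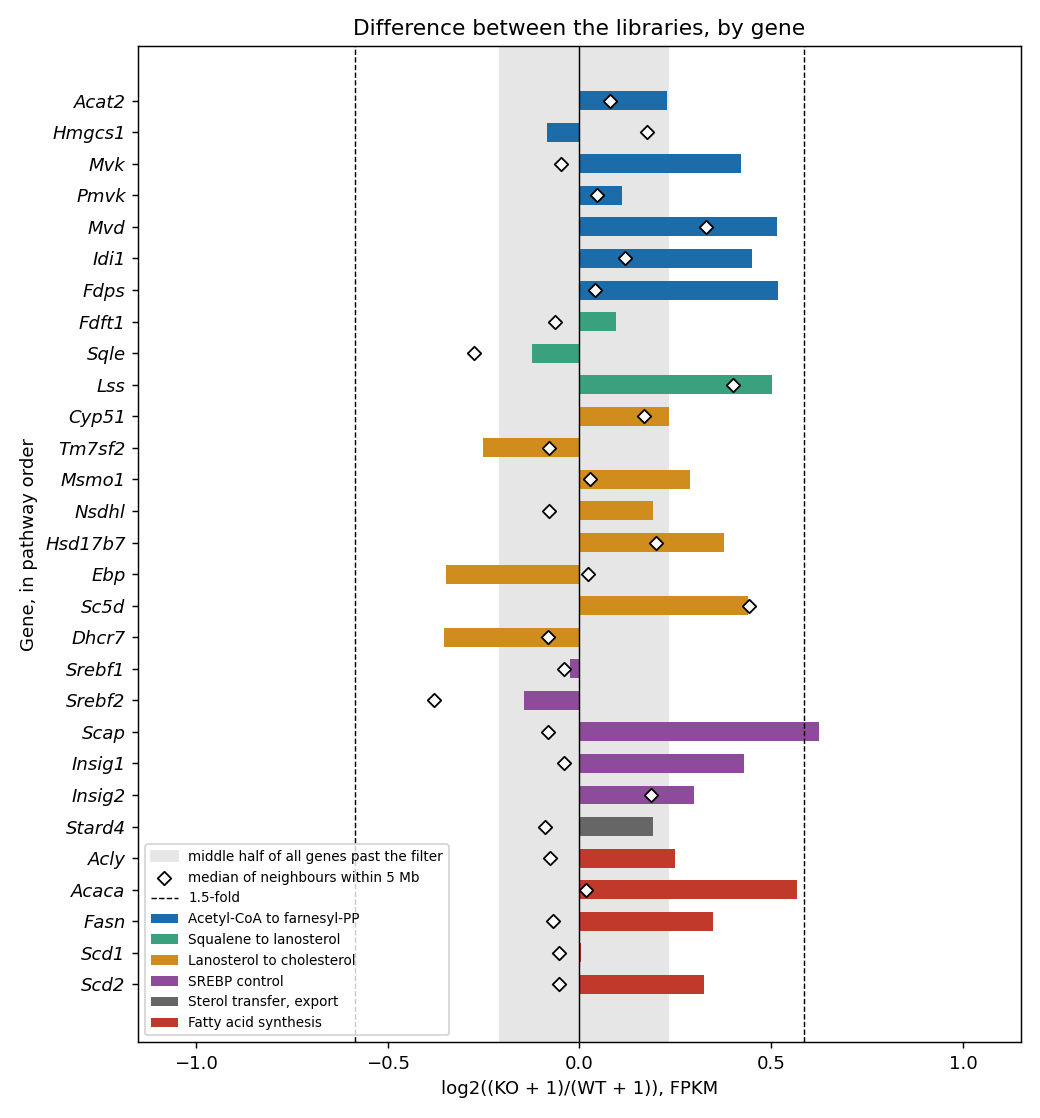
Bars give log2((KO + 1)/(WT + 1)) for each of the 29 genes past the filter, coloured by pathway step, and diamonds the median of the genes within 5 Mb. The grey band is the interquartile range of all genes (-0.21 to 0.23) and dashed lines mark 1.5-fold, which only Scap passed, at 0.62.

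Other genes of the pathway were taken from 6 further lists, of which 59 genes are reported and 51 passed the filter. Of these, 27 (52.9%) were higher and 24 (47.1%) lower in the library labelled KO, against 50.7% and 49.3% of all genes. The median was 0.053. More than 1.5-fold higher was 1 of the 51, Nr1h3, or 1.96% against 7.68% of all genes. More than 1.5-fold lower were 3, Ch25h, Tecr and Aacs, or 5.88% against 7.5%. With 5 FPKM added in place of 1, Nr1h3 stood at 0.38 and Ch25h at -0.35, inside 1.5-fold, and neither reached a mean of 5 FPKM. Among 6 other genes of sterol synthesis 4 stood higher, the median being 0.16, and among 9 of the isoprenoid branches 7 did, the median being 0.11. Their most abundant genes were Cyb5r3, a reductase that supplies electrons to sterol and fatty acid enzymes, at 227 and 180 FPKM, and Nus1, a subunit of the dolichol-forming transferase, at 30.4 and 44.8 FPKM. None of the genes in these lists passed 1.5-fold.

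The reported genes of lipoprotein uptake and lysosomal egress had a median of 0.17, with 5 of 8 higher. None passed 1.5-fold on the scale with 1 FPKM added. Stard3, a late endosomal sterol transfer protein named here after its values were seen, was at 9.26 and 14.3 FPKM, 1.54 times the WT value and 0.577 on that scale. The most abundant, the lysosomal cholesterol carrier Npc2, was at 148 and 147 FPKM.

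The reported genes that cleave SREBPs or degrade their partners had a median of 0.037, with 4 of 8 higher. Mbtps1, the protease that makes the first cut in SREBPs, was at 33.4 and 47.5 FPKM, a log2 fold change of 0.49 that came to 0.16 after subtraction of neighbouring genes. Tmem97, a sterol-regulated membrane protein, was at 103 and 113 FPKM. Among LXR, export and oxysterol genes, with a median of -0.04 over 7 genes, Nr1h3, which encodes the oxysterol receptor LXR alpha, was at 0.219 and 1.81 FPKM, and reached a mean of 1 FPKM only through the library labelled KO. Ch25h, which makes the SREBP-suppressing 25-hydroxycholesterol, was at 2.28 and 0.718 FPKM, a log2 fold change of -0.93. Both are low genes, and Soat1, the acyltransferase that esterifies cholesterol for storage, was at 53.7 and 52.2 FPKM.

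Of 13 other genes of fatty acid synthesis past the filter, 5 were higher and 8 lower, with a median of -0.07. Tecr, the reductase that completes very long chain fatty acid elongation, was at 549.98 and 187 FPKM, a log2 fold change of -1.55. It lies in a stretch of chromosome 8 where its neighbours had a median of -1.42. Aacs, which activates acetoacetate for lipid synthesis, was at 48.8 and 23.9 FPKM, 0.490 times the WT value, beside neighbours on chromosome 5 at 0.026. Elovl1, an elongase, was at 124 and 112 FPKM.

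**Figure D5:**
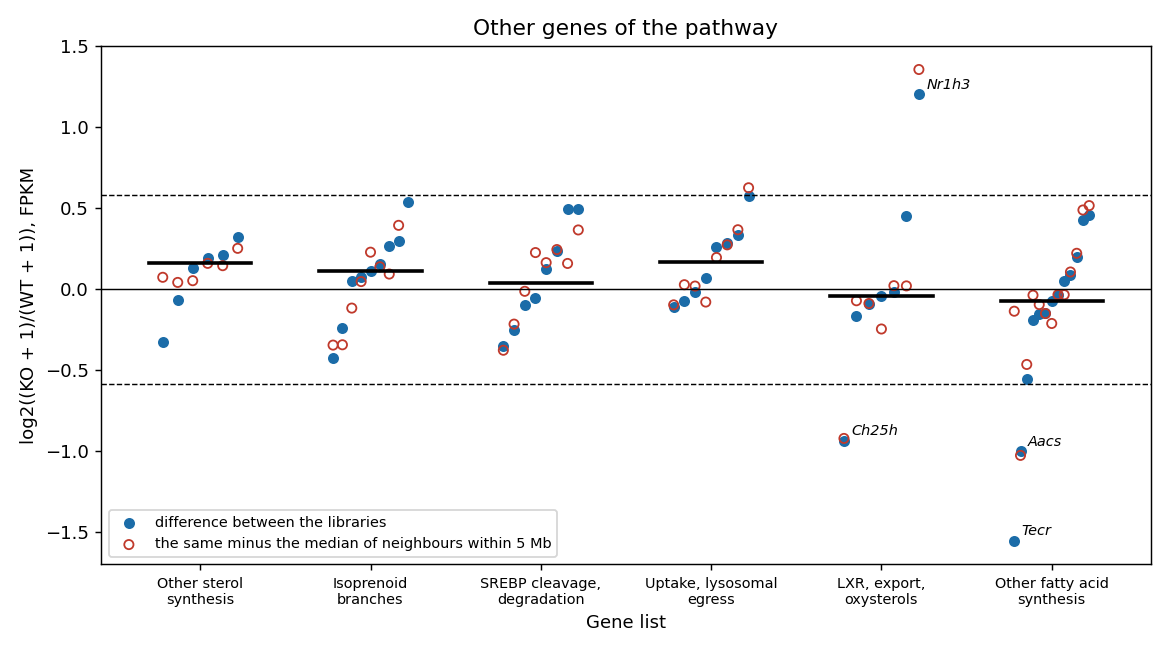
log2((KO + 1)/(WT + 1)) of the 51 other pathway genes past the filter, by list (filled points), and the same minus the median of neighbours within 5 Mb (open points), with thick lines for list medians and dashed lines for 1.5-fold. Tecr lies lowest, at -1.55, and comes to -0.14 once its neighbours are subtracted.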

How the data were processed

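RNA from 1 WT and 1 Gne KO culture of C2C12 cells was sequenced from polyadenylated RNA with a strand-specific kit. According to the submitters' processing notes, FastQC, Trim Galore 0.6.6, STAR 2.7.9a and RSEM 1.3.3 were used, with build GRCm38, whereas the paper's methods name GRCm39. The values deposited by the authors carry no unit and were taken as FPKM from their totals and low values. The depth is not given. In genes with 1 annotated transcript and values between 0.01 and 0.5, the most frequent product of value and length was 0.0376 FPKM kb in WT and 0.0422 FPKM kb in the library labelled KO, taken as 1 fragment. The estimate is rough, because only 17 of 231 such genes in WT and 18 of 253 in the other library fell in the bin of this product. These settings were chosen after the values were seen, and with estimated fragments no counting interval is given.

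Of 21853 rows, 24 were dropped as repeats of a symbol with a lower mean. Genes needed a mean of at least 1 FPKM, and a pseudocount of 1 was used. With 1 library per group no test was made, and lists were described by counts and medians beside all genes. The genes of the pathway and all lists were chosen with earlier results of these data known. Every gene of the pathway is named, and of the other lists those beyond 1.5-fold and up to 2 of the most abundant per list. Of these other lists, 3 genes are not reported here and were left out of the counts, medians and figure. The quartile counts and the level background were added after the values were seen. Neighbour medians needed at least 10 genes, and 10037 of the 10542 genes had one. The fold change and neighbour steps were tested on simulated data. Alternatives were a pseudocount of 0.1 or 5, a filter at 5 FPKM or none, median of ratios scaling, subtraction of neighbours and the 250 bases before the start. Computation used numpy 2.4.6 and pandas 2.3.3 under Python 3.11.15, with figures from matplotlib 3.10.9.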

Additional observations from a re-analysis of the deposited data

How the results depend on the processing

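No paired analysis was possible because each group has 1 library and the values come from no test, and for the same reason no replicate could be left out. The number of pathway genes more than 2-fold changed was 0 under every alternative run. The number more than 1.5-fold higher, 1 as reported, was 2 when 0.1 was added to each value in place of 1, and 0 when 5 was added. Subtraction of neighbouring genes took the median from 0.42 to 0.19 for the mevalonate branch and from 0.21 to 0.031 for lanosterol to cholesterol, and changed the sign of Sqle, Sc5d, Srebf1 and Srebf2. Scaling changed the sign of Scd1. Over all genes, the numbers more than 2-fold higher and lower were 299 and 362 as reported, 102 and 176 when 5 was added, and 145 and 221 under the stricter filter of 5 FPKM. Beyond 1.5-fold these numbers were 810 and 791, 395 and 445, and 504 and 523. Pathway genes with a higher value numbered between 21 and 24 under the alternatives.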

Other observations

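The exons of 17 of the 30 genes overlap those of another annotated gene, and the counting is not stated to have used strand. For Tm7sf2 the overlapping gene is Vps51, on the same strand, at 20.5 and 18.2 FPKM in the WT library and the library labelled KO. Fdft1 shares exon bases with Ctsb, a lysosomal protease gene on the opposite strand, at 206 and 189 FPKM. Acat2 shares 322 bases with Tcp1, a chaperonin gene on the opposite strand, at 327 and 355 FPKM, and its paralog Acat3 was at 3.39 and 3.81 FPKM. Nsdhl shares 331 bases with Cetn2, a centrin gene on the opposite strand, at 29.7 and 41.5 FPKM. Sqle shares 470 bases with Washc5, at 81.1 and 70.9 FPKM.

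Of the adipocyte markers, Lpl, lipoprotein lipase, was at 0.893 and 17.8 FPKM in the same order, Cebpa at 5.44 and 13.1 FPKM, and Pparg at 10.2 and 9.31 FPKM. The adipocyte lipid carrier Fabp4 was listed at 0 in WT and reached 0.321 FPKM in the other library.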
